A study of Mus musculus with 23 samples.

Results

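Methylation was described along 3 stretches of the mouse genome that hold large families of recently duplicated genes, the major urinary protein (Mup), Skint and androgen-binding protein (Abp) clusters. Windows of 150 bp were chosen by position alone, as those whose start lies in GRCm38 on chromosome 4 between 59.9 and 62.3 Mb (Mup), on chromosome 4 between 111.8 and 113.1 Mb (Skint), or on chromosome 7 between 31.9 and 34.2 Mb (Abp). This gave 1086 of the 210191 deposited windows, with 548 in the Mup, 58 in the Skint and 480 in the Abp stretch. They were set beside the 194591 other autosomal windows, and where stated beside those with the same number of CpGs. The data are MBD-seq of the prefrontal cortex, in which the MBD2 protein captures DNA fragments through their methylated CpGs, so the reads on a window rise with its methylation. Values are log2 RPKM, the base-2 logarithm of reads scaled to window length and library size (RPKM) with a small prior count, and a value of -0.03 is a window without reads. The study asked whether exposure to corticosterone and an organophosphate changes DNA methylation differently in 2 strains.

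The strains were C57BL/6J (B6, 11 mice), from which the reference genome derives, and DBA/2J (D2, 12 mice). CORT + DFP mice (6 B6, 6 D2) drank corticosterone at 20 mg% for 7 days, were injected with diisopropyl fluorophosphate (DFP) at 4.0 mg per kg, and then drank corticosterone in alternate weeks. Control mice (5 B6, 6 D2) were kept on that schedule with plain water and saline. Each group held 3 females and 3 males, except the B6 controls with 2 females. B6 controls were 145 days old, B6 CORT + DFP mice 145 to 226, and D2 mice of both groups 147 to 196. By the first part of the sample names the mice fall into 3 sets: the B6 controls were all in set 2, which held no D2 mouse, and set 1 alone held both strains (3 B6 and 5 D2 mice). Reads in the deposited windows numbered 9776537 to 18428398 per mouse, and the median window of the 3 clusters had 38 reads per mouse.

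Major urinary proteins are lipocalins, made mostly in the liver, that carry small pheromones into urine. Skint genes encode membrane proteins of the immunoglobulin superfamily, and Skint1 is needed for the selection of the gamma-delta T cells that populate mouse skin. Androgen-binding proteins are secretoglobins of saliva and other secretions, built from an alpha subunit (Scgb1b genes) and a beta-gamma subunit (Scgb2b genes). All 3 families grew by tandem duplication, and the Mup and Abp families carry many pseudogenes. Their best-known sites of expression lie outside the brain.

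Sequences of 6 windows are shown because they carry the patterns described here, with each CpG, the dinucleotide that is methylated, in capitals. They were read from the spliced transcripts of GENCODE M21 on GRCm38 and are printed on the + strand. The number of CpGs in each equals the number listed for its window. The first pair lies in Gm12818, a processed pseudogene inside Skint6, where no D2 mouse had a read:
Gm12818 first window, chr4:112978501-112978650: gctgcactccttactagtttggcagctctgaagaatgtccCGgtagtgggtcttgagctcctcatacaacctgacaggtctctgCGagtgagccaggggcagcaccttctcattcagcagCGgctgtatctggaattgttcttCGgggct
Gm12818 second window, chr4:112978651-112978800: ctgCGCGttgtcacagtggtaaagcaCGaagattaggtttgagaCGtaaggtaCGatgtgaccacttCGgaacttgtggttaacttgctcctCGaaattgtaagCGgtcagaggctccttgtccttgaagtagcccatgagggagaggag
The next pair comes from Gm4398 and Gm4405, processed pseudogenes of the Abp stretch whose exons are identical over the 982 bases that align, where D2 had few reads:
Gm4398 window, chr7:32791651-32791800: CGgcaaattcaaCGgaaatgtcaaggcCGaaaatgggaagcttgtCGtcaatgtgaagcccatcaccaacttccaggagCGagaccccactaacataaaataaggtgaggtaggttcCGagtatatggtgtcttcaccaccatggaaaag
Gm4405 window, chr7:33018601-33018750: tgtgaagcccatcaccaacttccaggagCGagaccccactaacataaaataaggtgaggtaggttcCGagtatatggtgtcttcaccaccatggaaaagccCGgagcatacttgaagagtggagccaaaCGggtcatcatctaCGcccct
The last pair stands for windows that D2 kept, in the lincRNA Gm12763 of the Abp stretch and the processed pseudogene Mup-ps23:
Gm12763 window, chr7:33657901-33658050: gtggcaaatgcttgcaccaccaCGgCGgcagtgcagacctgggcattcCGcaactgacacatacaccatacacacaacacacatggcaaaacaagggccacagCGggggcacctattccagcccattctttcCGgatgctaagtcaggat
Mup-ps23 window, chr4:61856401-61856550: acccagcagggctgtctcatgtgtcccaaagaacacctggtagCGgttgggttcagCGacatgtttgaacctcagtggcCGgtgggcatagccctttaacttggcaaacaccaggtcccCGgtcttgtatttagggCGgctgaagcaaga
Mean reads per mouse at these 6 windows, in the order shown, were 40.8, 47.8, 43.2, 41.5, 37.4 and 59.4 in B6 and 0, 0, 5.5, 4.42, 38.4 and 56.7 in D2.

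The Mup and Abp stretches were dense in deposited windows and the Skint stretch was sparse. There were 228 windows per Mb in the Mup, 209 in the Abp and 44.6 in the Skint stretch, beside 79.1 on the other autosomal sequence. In the Mup stretch 398 kb between chr4:60792150 and chr4:61189951 held no window. The widest gaps of the Skint and Abp stretches were 162 kb and 99.9 kb. Most windows lay outside genes, with 96.4% of the Mup, 65.5% of the Skint and 95.2% of the Abp windows between genes.

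Signal of the 3 clusters was lower in D2 than in B6, while in B6 the Mup and Abp windows lay above other autosomal windows. At the recovered library sizes 34 Skint (58.6%), 180 Abp (37.5%) and 100 Mup windows (18.2%) exceeded 1 CPM (reads scaled to library size) in 2 or more mice of B6 alone, beside 4.23% of other autosomal windows, and 0 windows of the clusters did so in D2 alone. A window that passed the read filter through B6 alone had to be lower in D2, so medians, ratios and counts over all windows of a cluster are descriptions of the deposited windows and support no difference between strains. In B6 the median over windows of the mean log2 RPKM was 4.69 in the Mup, 4.42 in the Skint and 4.57 in the Abp stretch, beside 4.41, 4.45 and 4.44 for other autosomal windows with the same CpG numbers. In D2 it was 4.30, 1.17 and 3.10, beside 4.38, 4.40 and 4.39. The mice of the strains did not overlap in any of the 3 stretches. For the Skint stretch the median over windows ranged from 4.24 to 4.62 among B6 mice (4.45 ± 0.115, SD, n = 11) and from 0.74 to 1.51 among D2 mice (1.19 ± 0.232, SD, n = 12). For the Abp stretch it ranged from 4.51 to 4.71 in B6 (4.60 ± 0.061, SD, n = 11) and from 3.04 to 3.23 in D2 (3.11 ± 0.050, SD, n = 12). For the Mup stretch it ranged from 4.62 to 4.76 in B6 (4.70 ± 0.046, SD, n = 11) and from 4.19 to 4.38 in D2 (4.28 ± 0.056, SD, n = 12). Within a strain, control and CORT + DFP mice overlapped in each stretch. Reads of each mouse were aligned to a genome derived from B6, so D2 DNA that is missing, D2 reads that could not be placed and lower methylation in D2 cannot be told apart. Nor can loss of methylation in some cells be told apart from less methylation in all cells.

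**Figure D1:**
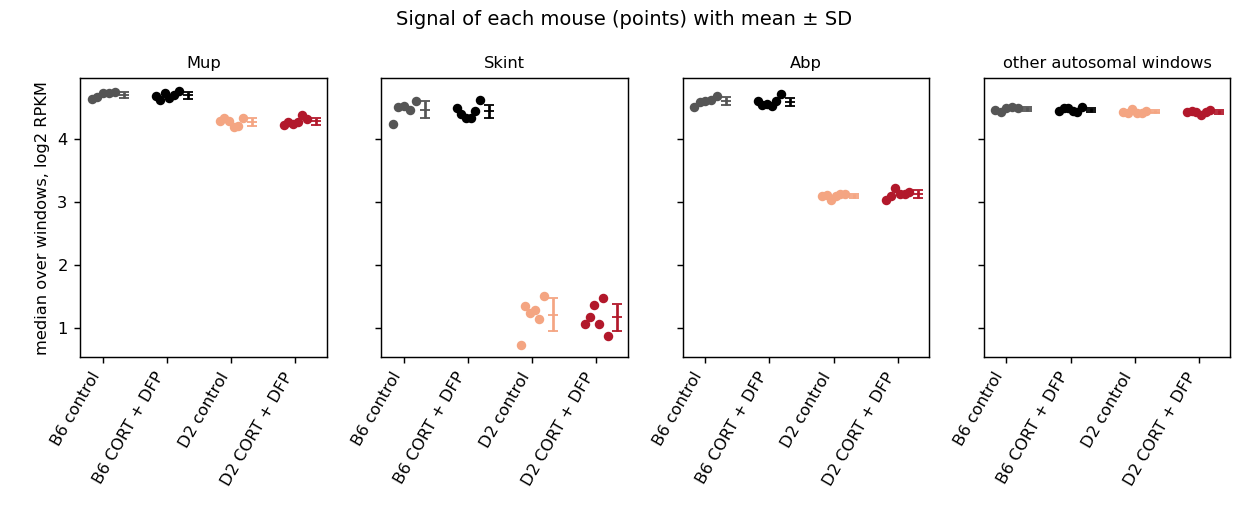
Median log2 RPKM (y axis) over the windows of each cluster, and over the other autosomal windows, for every mouse (points) by group (x axis), with the group mean and SD beside the points. D2 mice lie at 0.74 to 1.51 in the Skint stretch and B6 mice at 4.24 to 4.62, while on the other autosomal windows the strains lie between 4.38 and 4.50.

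A regression of each window held strain, treatment, the interaction of both, age and sex, with p-values adjusted over all 210191 windows (Benjamini-Hochberg), and the strain term compares D2 with B6 controls. Of all windows, 14.9% were called lower and 10.4% higher in D2 at an adjusted p under 0.05. In the Skint stretch 47 of 58 windows (81%) were called lower in D2 and 1 (1.72%) higher. In the Abp stretch 362 of 480 (75.4%) were lower and 4 (0.833%) higher. The Mup stretch held both directions, with 263 of 548 windows (48%) lower and 114 (20.8%) higher. Other autosomal windows with the CpG numbers of the 3 stretches were lower in 14.5% to 15.5% and higher in 9.38% to 10.5%. The median strain difference was -3.12 in the Skint, -1.54 in the Abp and -0.37 in the Mup windows on the log2 scale, where other windows of the same CpG number had medians between 0.00 and 0.01. Among the windows over 1 CPM in 2 or more mice of each strain, a restriction chosen after seeing the data, 13 of 24 Skint (54.2%), 180 of 300 Abp (60%) and 161 of 448 Mup windows (35.9%) were lower, beside 11% of all and 11.4% of other autosomal windows. There 0 Skint, 4 Abp (1.33%) and 112 Mup windows (25%) were higher, beside 10.3% and 9.88%, and the median differences were -0.66, -0.68 and -0.06, beside 0.01 in other autosomal windows. Every deposited window exceeded 1 CPM in at least 8 libraries. A window with fewer than 8 such D2 mice therefore still needed B6 mice to be kept, so this restriction removes the effect of the read filter only in part. Fewer Mup and Abp windows were lower when 8 or more such mice of each strain were required. The share of other windows called there was not computed, so that is a description too. With more than 3 mean reads required in each strain, 18 Skint windows were called lower. That bound still admits windows that passed the read filter through B6 alone, so this count, given without a share of other windows, is a description. Neighbouring windows share fragments, so these counts are not of independent sites. Counts of called windows given for genes and parts of a stretch are over all deposited windows.

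Strain differences were also computed in the mice of set 1, which hold both strains. The 3 B6 mice of set 1 were all CORT + DFP mice, aged 218 to 226 days. Its 5 D2 mice were 3 controls and 2 CORT + DFP mice, aged 196 days. Treatment and age were not adjusted for in set 1 alone, so strain is mixed with both in that set. In set 1 the median difference of means was -3.28 in the Skint, -1.42 in the Abp and -0.41 in the Mup stretch. Windows higher in D2 were fewer when set replaced age in the regression or when set 1 was taken alone, with 68 and 69 in the Mup, 2 and 0 in the Abp and 0 and 0 in the Skint stretch. Shares of other windows called under these fits were not computed. The drop is therefore a description and is not particular to the clusters on these values. In females and males the median differences were -3.33 and -3.31 (Skint), -1.49 and -1.56 (Abp) and -0.40 and -0.34 (Mup).

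The ratio of mean RPKM in D2 to that in B6 separates the clusters further, in classes whose bounds were chosen with the data in view. A ratio under 0.1 was found in 31 Skint (53.4%), 134 Abp (27.9%) and 83 Mup windows (15.1%), beside 2.45% to 2.6% of other windows with the same CpG numbers. Between 0.1 and 0.5 lay 11 Skint (19%), 162 Abp (33.8%) and 117 Mup windows (21.4%), beside 6.35% to 6.87% of the others. Near equality, from 0.5 to 1.5, lay 16 Skint (27.6%), 184 Abp (38.3%) and 255 Mup windows (46.5%), beside 85.2% to 86%. A ratio of 1.5 or more was found in 93 Mup windows (17%) and in 0 of the Skint and Abp windows, beside 6% (Mup), 4.53% (Skint) and 5.03% (Abp) of other windows with the same CpG numbers. The 3 stretches hold 0.555% of autosomal windows and 4.67% of those with a ratio under 0.1.

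**Figure D2:**
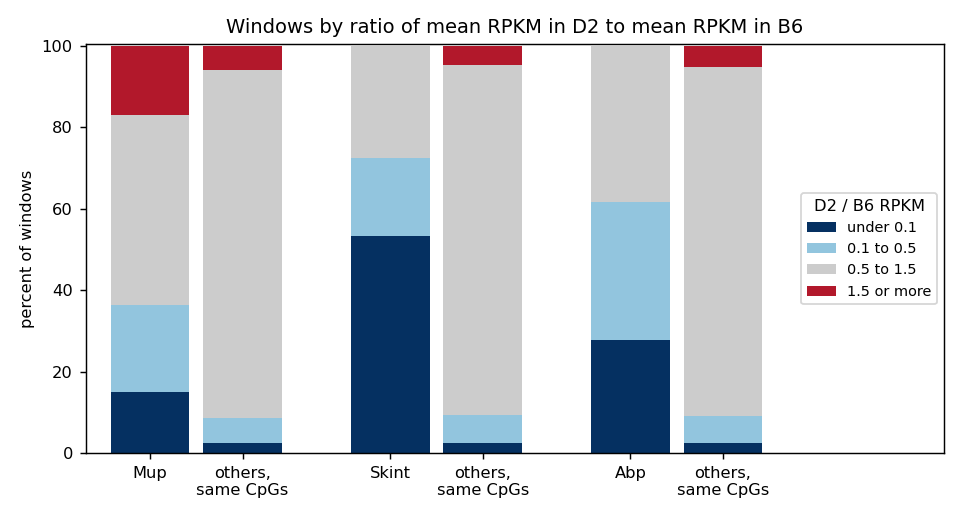
Percent of windows (y axis) in 4 classes of the ratio of mean RPKM in D2 to mean RPKM in B6, for each cluster and for the other autosomal windows weighted to the same CpG numbers. Ratios under 0.1 make up 53.4% of the Skint, 27.9% of the Abp and 15.1% of the Mup windows, and ratios of 1.5 or more 17% of the Mup windows.

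No D2 mouse had a read in 10 Skint (17.2%), 15 Abp (3.12%) and 4 Mup windows (0.73%), beside 0.213% of all and 0.212% of other autosomal windows. Such a window passed the authors' read filter through B6 alone and had to differ, so it is given as a description. B6 mice had 9 to 70 reads in the Skint, 14 to 72 in the Abp and 22 to 87 in the Mup windows of this kind. With 3 reads over the 12 D2 mice as the limit that a count of 0 allows (0.116 RPKM), B6 was at least 138-fold to 214-fold higher in the Skint, 125-fold to 239-fold in the Abp and 170-fold to 253-fold in the Mup windows. These limits cover counting error only. No window of the clusters lacked reads in all B6 mice. A mean of 3 or fewer D2 reads was found in 29 Skint (50%), 108 Abp (22.5%) and 56 Mup windows (10.2%), beside 1.93%, 1.97% and 1.84% of other autosomal windows with the same CpG numbers.

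**Figure D3:**
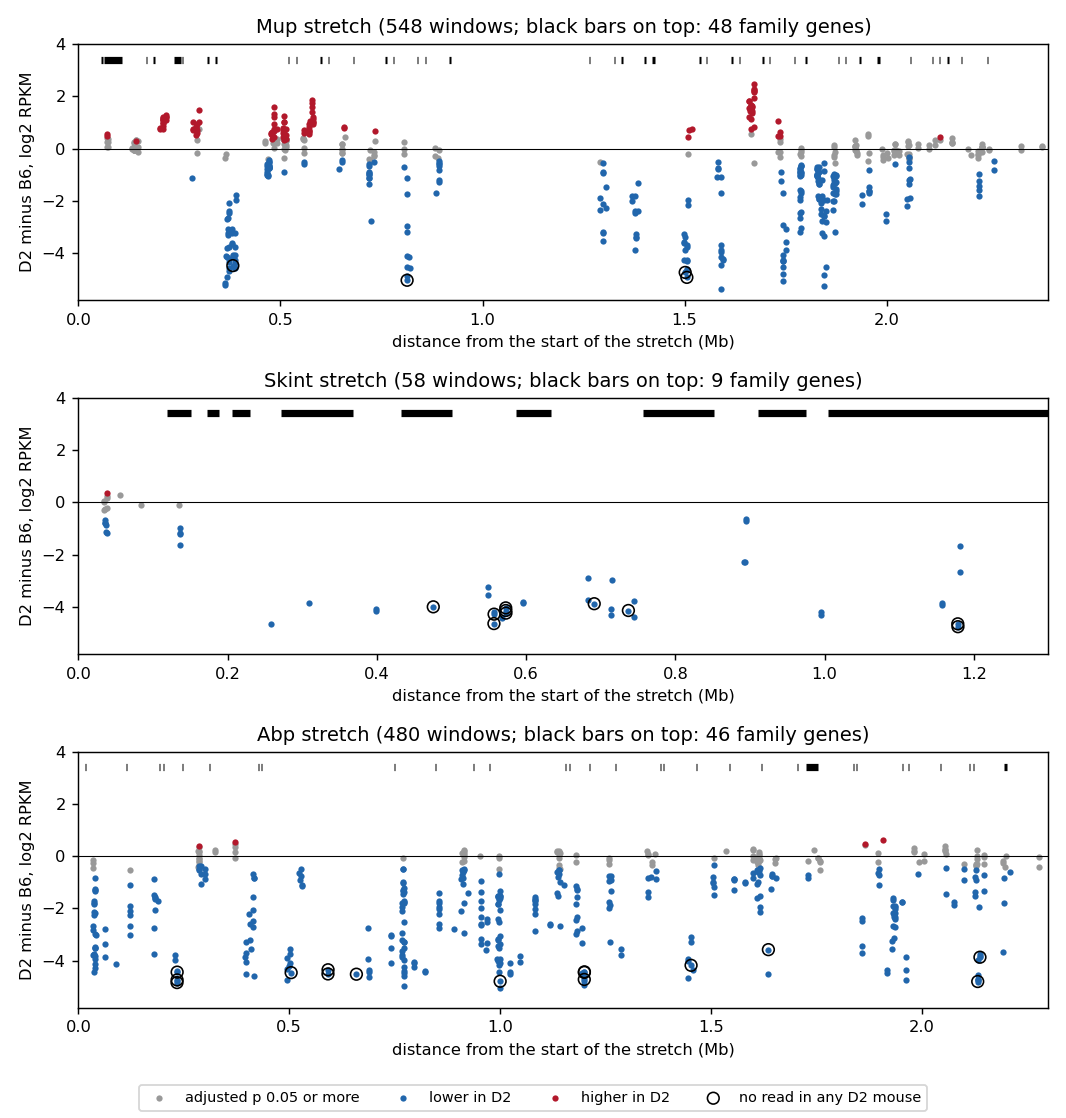
Strain difference of each window (y axis, D2 minus B6 controls, log2 RPKM) against its distance from the start of the stretch (x axis, Mb), with windows called lower in D2 in blue, higher in red, others in grey, windows without D2 reads circled and family genes as black bars, including windows that passed the read filter through B6 alone. All but 1 of the windows past the first 0.1 Mb of the Skint stretch are blue, red windows group in the Mup stretch, and the Abp stretch mixes blue and grey.

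D2 signal was low in consecutive deposited windows over the middle of the Skint stretch. The first 0.1 Mb, ahead of the Skint genes, held 16 windows with a median ratio of 0.805, of which 6 were called lower and 1 higher. The 25 windows from chr4:112057951 to chr4:112545300 then all had a ratio under 0.1, over 487 kb that include Skint4, Skint3 and Skint9. Another 6 windows under 0.1 lie within 183 kb in and before Skint6. Of this span, 162 kb between chr4:112795950 and chr4:112957501 held no window. Deposited windows overlapped 5 of the 9 Skint genes (Skint8, Skint4, Skint3, Skint9 and Skint6), and each of these had at least 1 window lower in D2. Skint8, nearest to the start, kept the most signal, with mean reads of 48.1 in B6 and 26.6 in D2 over 5 windows. Skint9 had 33.9 and 0.167 reads over 2 windows, and the 1 window of Skint3 had 35.8 and 0. A further 6 windows lay in the part of Skint6 that the stretch covers, and all were called lower, with differences from -4.76 to -1.69. Skint1, Skint7, Skint2 and Skint10 held no deposited window.

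At chr4:112981801-112981950, in an intron of Skint6, every mouse had a read. B6 mice had 27 to 55 reads (median 34) and D2 mice 2 to 9 (median 3.5), without overlap. The strain difference was -2.68 on the log2 scale, given with no test, since the window passed the read filter through B6 alone. The highest window for D2 in the stretch, chr4:111838501-111838650, lies 9317 bp from Spata6, a gene of the sperm flagellum, and overlapped between strains, with 32 to 73 reads in B6 and 47 to 114 in D2. Its difference was 0.34 ± 0.119 (SE, adjusted p = 0.0443), with an adjusted p of 0.0606 when set replaced age and up to 0.123 when 1 mouse was left out.

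The Mup stretch alternated between parts with lower and parts with higher D2 signal. From 0.3 to 0.4 Mb, 35 of 37 windows were lower, with a median of 46.1 reads in B6 and 2.08 in D2, while from 0.2 to 0.3 Mb 26 of 30 were higher. From 1.5 to 1.6 Mb, 26 of 30 windows were lower (median ratio 0.0505), and from 1.6 to 1.7 Mb 26 of 28 were higher (median ratio 3.04). Beyond 1.9 Mb most windows lay near equality, with median ratios of 0.846 to 1.13 per 0.1 Mb. A pair of runs of 14 windows under 0.1 covered 7500 bp each, from chr4:60279751 and from chr4:61398901.

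Windows with more D2 than B6 signal formed runs. The number of copies of these sequences in D2 was not measured, so whether methylation was higher there was not tested. The 8 windows from chr4:61571101 to chr4:61630950, a span that holds Mup17, had ratios from 1.83 to 5.7 (median 4.43). No deposited window lay in Mup17 itself. Runs of 22 windows (chr4:60458551 to chr4:60480000, holding Mup-ps26) and 20 windows (chr4:61558051 to chr4:61567200) had median ratios of 1.99 and 2.96. At chr4:61571401-61571550, 20379 bp from Mup17, B6 mice had 27 to 60 reads (median 40) and D2 mice 173 to 395 (median 268.5). Its strain difference was 2.45 ± 0.139 (SE, adjusted p = 1.88e-10). At chr4:61571701-61571850 the D2 mice had 222 to 673 reads and the B6 mice 43 to 100, and the level of 7.60 ± 0.14 in D2 (SD, n = 12) was the highest of the 3 clusters. The strains overlapped at neither window.

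**Figure D4:**
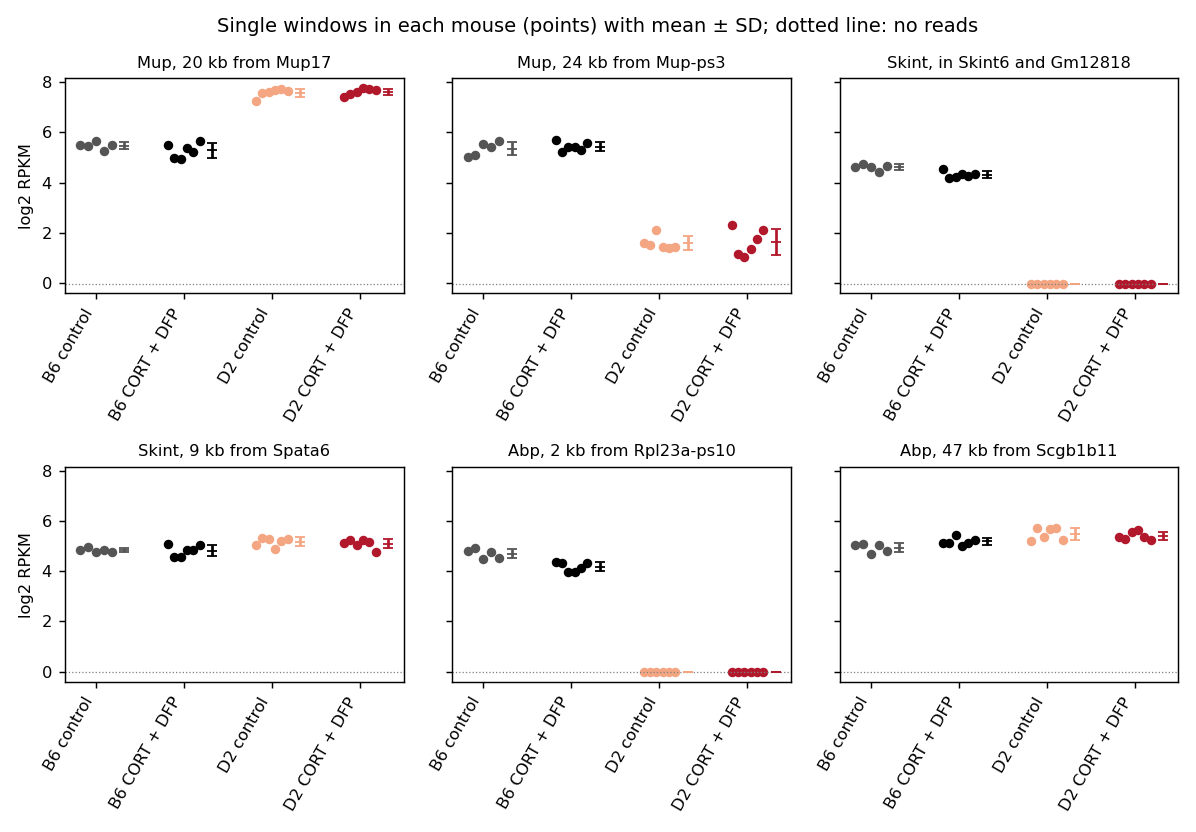
Log2 RPKM (y axis) of every mouse (points) by group (x axis) at 6 windows, with group mean and SD and a dotted line at the value of a window without reads. D2 lies above B6 near Mup17, below it near Mup-ps3, at the dotted line in Skint6 and near Rpl23a-ps10, and overlaps B6 near Spata6 and Scgb1b11.

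Few windows lay in Mup genes, and those were mostly pseudogenes. Deposited windows overlapped 4 of 48 family genes, Mup6, Mup-ps29, Mup-ps26 and Mup-ps23. Mup-ps26 had 62.4 mean reads in B6 and 146 in D2, and both of its windows were higher in D2. Mup-ps23 had 54.5 and 28.4 reads, with 5 of 6 windows lower. The Mup-ps23 window printed above is the one not called, at 59.4 and 56.7 reads. Mup6 had 2 of 8 windows higher. The window chr4:60268501-60268650, in no gene and 24474 bp from Mup-ps3, had reads in every mouse, at 45 to 112 in B6 and 2 to 8 in D2. Its strain difference was -3.79. This window too passed the read filter through B6 alone and is a description.

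In the Abp stretch runs of windows with low D2 signal lay between windows with higher ratios, and the upper quartile of the ratio over the stretch was 0.703. Median ratios per 0.1 Mb ranged from 0.00237 to 0.96, and runs of windows with a ratio under 0.5 reached 31 windows over 137 kb. Under 0.1 there were 41 runs, none longer than 9 windows. One of 9 windows, over 87.9 kb from chr7:32316751, had median reads of 39.3 in B6 and 0.667 in D2. It spans the subunit genes Scgb2b12 and Scgb1b12, but no deposited window lay in either gene. Another run of 9 windows, over 48.3 kb from chr7:32672701, had median reads of 42.7 and 1.17. At chr7:32298001-32298150 B6 mice had 42 to 83 reads and D2 mice 1 to 5, without overlap, for a difference of -4.07 at a window that also passed the read filter through B6 alone. The 4 windows higher in D2 had no such separation. At chr7:32270851-32271000, 46695 bp from Scgb1b11, B6 mice had 46 to 82 reads and D2 mice 52 to 154, and the difference was 0.53 ± 0.124 (SE, adjusted p = 0.00295), or 0.34 with set in place of age (adjusted p = 0.345).

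Windows overlapped 2 of 46 secretoglobin genes of the stretch, and these kept most of their D2 signal. The pseudogene Scgb2b23-ps had 38 mean reads in B6 and 32.7 in D2 over 5 windows, of which 2 were lower. Scgb1b30, an alpha subunit gene, had 42 and 42.9 over 2 windows, and neither was called. Over the 3 clusters, 7 Abp, 15 Skint and 18 Mup windows lay in family genes, with median differences of -0.20, -3.82 and 0.24. Windows between genes had -1.59, -2.61 and -0.39. No deposited window overlapped any of the promoters listed for these families in RefSeq (38 Mup, 9 Skint and 22 Abp promoters, from 250 bases before to 50 after a start).

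Windows of the Abp stretch that lie 226.95 kb apart had similar strain differences. This was the most frequent distance over 15 kb between windows there, found for 83 pairs, and it was picked from the data. In 67 of the 83 pairs both windows were lower in D2, in 6 one was, and in 10 neither. Of all Abp windows 75.4% were called lower, and 37.5% passed the read filter through B6 alone. Pairs at other distances were not computed, so the shared calls and classes are a description. The same ratio class was shared by 68 pairs, and r between the differences of the paired windows was 0.86 across these 83 pairs, which come from the same 23 libraries and share base composition. Gm4398 and Gm4405 lie 226899 bp apart, match in all 982 bases that align, and hold the windows printed above, with 43.2 and 41.5 reads in B6 and 5.5 and 4.42 in D2. Every 50-base stretch of those windows recurs in another annotated transcript. Counting cannot tell such copies apart, and how reads with several placements were counted is not given in the sources used here. In the Mup stretch the most frequent distance (1360.2 kb, 72 pairs) joined windows of the same class in 16 pairs, with r = -0.22.

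**Figure D5:**
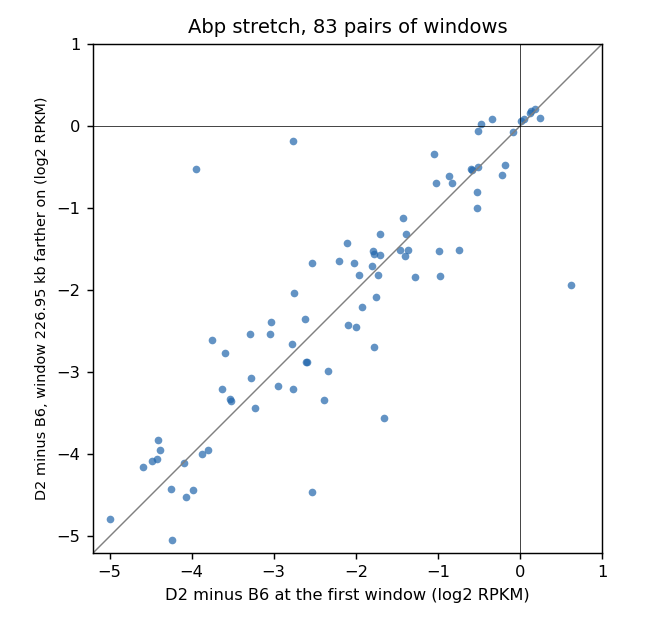
Strain difference (D2 minus B6, log2 RPKM) at the first window (x axis) and at the window 226.95 kb farther on (y axis) for 83 pairs in the Abp stretch, with a line of equality. Most points lie along the line, from near 0 to near -5.

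Shares of windows lower in D2 are given by the number of CpGs as a description. In the Mup stretch 42% of windows with 1 to 3 CpGs were lower in D2 and 73.3% of those with 10 or more, and the share higher in D2 went from 28.3% to 13.3%. Other autosomal windows went from 10.5% to 23.8% lower over the same CpG numbers. In the Abp stretch the share of lower windows was 62.1% at 1 to 3 CpGs, 84.9% at 8 to 9 and 76.4% at 10 or more. In the Skint stretch it was 66.7% of 6 windows with 1 to 3 CpGs, 100% of 14 with 4 to 5, 76.2% of 21 with 6 to 7, 72.7% of 11 with 8 to 9 and 83.3% of 6 with 10 or more.

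No window of the clusters passed the adjusted threshold for a response to CORT + DFP. In B6, 30 Mup (5.47%), 17 Abp (3.54%) and 2 Skint windows (3.45%) had a treatment p under 0.05, beside 5.86% of all and 5.91% of other autosomal windows. The treatment-by-strain term was under 0.05 in 20 Mup (3.65%), 26 Abp (5.42%) and 3 Skint windows (5.17%), beside 6.82% of all and 6.89% of other autosomal windows. After adjustment no window passed for either term by this regression, in the clusters or among all windows. With limma no window of the clusters passed, and windows outside them were not counted. At the study's threshold, an unadjusted p of 0.0001, 2 windows of the clusters (0.184%) passed for treatment, beside 0.0109% of all and 0.0108% of other autosomal windows, and 0 for the interaction, beside 0.0114% and 0.0118%.

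Both of these windows had no D2 reads. At chr7:32134051-32134200, 2477 bp from Rpl23a-ps10, a ribosomal protein pseudogene, the 5 B6 controls had 38, 40, 42, 66 and 68 reads and the 6 B6 CORT + DFP mice 26, 26, 27, 31, 38 and 43. On the log2 scale the groups did not overlap, at 4.49 to 4.91 and 3.96 to 4.35. The difference was -0.54 ± 0.09 (SE), with a regression p of 1.37e-05, an adjusted p of 0.561 and a two-sided exact permutation p within B6 of 0.00433, the smallest that 5 against 6 mice allow. At chr4:112978501-112978650, the first Gm12818 window printed above, the B6 controls had 34 to 60 reads and the CORT + DFP mice 24 to 49. The log2 ranges, 4.42 to 4.74 and 4.18 to 4.53, overlapped, and the difference was -0.30 ± 0.057 (SE, regression p = 6.44e-05, adjusted p = 0.645), with a two-sided exact permutation p of 0.00866. Adjusted over the 28 named windows, both exact permutation p-values were 0.121. Both windows were named because their treatment p was 0.0001 or less in the same mice. The exact permutation p-values and this adjustment do not account for that choice among all windows, so they are no separate support.

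The 12 D2 values at these windows are identical, which lowers the residual spread that the regression estimates over all mice. With the variance moderated across windows by limma the p-values were 0.000233 and 0.0166, and in the B6 mice of set 2 alone they were 0.0124 and 0.0136, with differences of -0.57 and -0.30. The Skint window stayed at 0.0001 or less in 6 of 23 fits that each left out 1 mouse, and the Abp window in 23 of 23.

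Sex differences were found in 5 Abp windows (1.04%) and in 0 Mup and Skint windows at an adjusted p under 0.05, beside 5.63% of all windows, X-linked ones included, and 0.599% of other autosomal windows. They lie at 3 places. In Scgb2b23-ps, at chr7:33629851-33630000, males were higher by 0.42 ± 0.094 (SE, adjusted p = 0.00752), with medians of 25 reads in females and 37 in males. The sexes overlapped there in each strain, at 25 to 42 and 34 to 51 reads in B6 and 14 to 43 and 19 to 46 in D2. The other 4 windows, pairs of nearby windows near Scgb2b21 and near Gm12760, were lower in males, by -0.32 to -0.17.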

How the data were processed

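MBD-seq of the prefrontal cortex was measured in 23 mice, whose strain, treatment, sex, age and set come from the labels. The authors aligned paired-end reads to GRCm38 with STAR 2.5.0a, counted them in windows of 150 bp with MEDIPS, kept those that held CpGs and passed 1 CPM in 2 or more libraries, and deposited log2 RPKM made with edgeR 3.34.1 and a prior count with a mean of 2 reads. At the recovered library sizes every deposited window exceeded 1 CPM in at least 8 libraries. The number of CpGs per window was deposited beside the values. There were 0 columns of other samples.

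Whole reads were recovered from the values at 100% of windows (within 0.01 of a whole number) and give the depth. The clusters and gene lists were chosen with earlier results of these data known. Least-squares regression on strain, treatment, the interaction of both, age and sex followed the study's methods (17 residual degrees of freedom), in Python 3.11.15 with numpy 2.4.6, with Benjamini-Hochberg adjustment over 210191 windows. Genes come from GENCODE M21, which shares the build. Windows were named by a rule: any with a treatment or interaction p of 0.0001 or less, the 3 largest strain differences each way with reads in every mouse, the top window of the 2 longest runs without D2 reads, and the 2 highest levels, 28 in all. Exact permutation tests used scipy 1.17.1, and moderated tests and voom weights used limma 3.58.1 in R 4.3.3.

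In reads simulated for the strain comparison over 210191 windows, 8% of 100 windows changed by 0.5 and 33% of 100 changed by -1.0 were called, with mean estimates of 0.47 and -0.95 and 3 calls among unchanged windows. Only these windows were changed, while 25.4% of all windows were called in the data. The adjusted threshold was therefore stricter in the simulation, and its shares do not measure how many strain differences the data reveal. Mice are separate animals. The alternatives were other scalings, filters, covariates, thresholds and mice left out.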

Additional observations from a re-analysis of the deposited data

Results flagged for a closer look

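Of 108 groups of mice tested over the 3 clusters and the named windows, 7 held a mouse whose gap to the nearest other, divided by the range of the group, passed Dixon's critical value, where about 1 in 20 (5.4 groups) is flagged by chance. D2 control 3 had a median of 3.04 over the Abp windows, with the others at 3.10 to 3.12. The same mouse had a log2 RPKM of 2.12 (6 reads) at chr4:60268501-60268650 near Mup-ps3, with the others at 1.38 to 1.61 (3 to 5 reads). D2 control 1 had 7.26 (222 reads) at chr4:61571701-61571850 near Mup17, with the others at 7.58 to 7.71. B6 CORT + DFP 6 had 5.16 (69 reads) at chr4:112372801-112372950 near Skint9, with the others at 4.24 to 4.57, and 4.33 (38 reads) at chr7:33808051-33808200 in Gm26443, with the others at 3.64 to 3.81. B6 control 3 had 4.20 (34 reads) at chr4:112691851-112692000 near Gm12817, with the others at 4.59 to 4.72. B6 CORT + DFP 2 had 4.58 (32 reads) at chr7:31939651-31939800 near Scgb1b9-ps, with the others at 4.79 to 4.90. The strain difference in Gm26443 stayed called in all 23 fits that each left out 1 mouse. In the regression with set in place of age (adjusted p = 0.23) and in set 1 alone (adjusted p = 0.392) it was not called. The windows near Mup-ps3, Skint9, Gm12817 and Scgb1b9-ps passed the read filter through B6 alone. None of the named windows passed the threshold for a difference between strains in the effect of treatment.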

How the results depend on the processing

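No paired analysis was possible because replicate numbers were given in the order of the samples and pair no mice across groups. Counts of windows lower in D2 moved by over 1.5 times under the read filters, which leave out windows with few D2 reads, and by less under the other alternatives. Shares of other windows called were computed only for over 1 CPM in 2 or more mice of each strain. Counts of called windows under the other alternatives are therefore descriptions. With over 1 CPM in 2 or more mice of each strain, chosen after seeing the data, 161 Mup, 13 Skint and 180 Abp windows were lower, with 8 or more such mice 132, 13 and 131, and with more than 3 mean reads in each strain 18 Skint windows. Windows higher in D2 changed more: in the Mup stretch 68 with set in place of age and 69 in set 1 alone; in the Abp stretch 7 with voom weights, 13 with strain averaged over treatments, 7 after centring, 2 with set in place of age, 0 in set 1 and 2 at an adjusted p under 0.01; in the Skint stretch 0 with limma, set, set 1, an adjusted p under 0.01 and both CPM restrictions, where the window near Spata6 had an adjusted p of 0.0513 and 0.0554. When a mean of 3 or fewer D2 reads was counted in place of no D2 read, there were 56 Mup, 29 Skint and 108 Abp windows. When at least 11 of 12 D2 mice had no read, there were 12 Mup and 28 Abp windows. The mean over windows in D2 was 3.84 (Mup), 1.87 (Skint) and 2.75 (Abp).

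Treatment windows at a p of 0.0001 or less numbered 0 with limma, voom, the read filter and set 2, and 1 after centring. At a p under 0.05 they were 26 (voom) and 11 (filter) in the Abp, and 5 (no age), 0 (filter) and 4 (set 2) in the Skint stretch. The interaction gave 13 Mup and 15 Abp windows without age and 1 Skint window with the filter. Sex gave 1 Mup window without age and 1 after centring, with 8 Abp windows after centring.

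With 1 mouse left out, treatment windows ranged from 1 to 3 at 0.0001, and at 0.05 from 15 (without B6 control 1) to 35 in the Mup, 11 (without B6 control 4) to 22 in the Abp and 1 to 6 in the Skint stretch. The interaction ranged from 15 (without B6 control 1) to 29 in the Abp and 2 to 6 in the Skint stretch, and 0 to 1 at 0.0001. Sex windows ranged from 2 to 8 in the Abp, 0 to 4 in the Mup and 0 to 2 in the Skint stretch. Windows higher in D2 ranged from 3 to 7 (without B6 control 3) in the Abp and 0 to 1 in the Skint stretch. The cause of these changes was not tested. Repetition of the window sequence over the genome was not run, since no genome sequence was used here.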

Other observations

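Runs of neighbouring windows with a ratio under 0.1 were counted on all autosomes, a description chosen with the data in view. The run of 25 windows through Skint4, Skint3 and Skint9 was the sixth by number of windows, and the first, on chromosome 10, held 43. Runs of 10 or more windows numbered 53, of which 3 lay in the Mup, 1 in the Skint and 0 in the Abp stretch.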
